A study of Mus musculus with 4 samples.

Results

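miR-34a-5p and miR-34c-5p, 2 miR-34 family microRNAs (miRNAs), are described here in mouse blood stem cells and immature, mature and regulatory dendritic cells. They were found by name among the 1078 mature miRNAs of the deposited table, and the 2 members are 2 of 6 miRNAs there that share 1 seed, the bases that pair with target mRNAs. Their reads were also recounted from the deposited lists of unique sequences. All cells came from C57BL/6J mice, and each cell type has 1 library.

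Haematopoietic stem cells (HSC) were bone marrow cells sorted as c-Kit+, Sca1+ and lineage-negative, with a stated purity above 95%. Immature dendritic cells (imDC) were grown from the marrow of mice aged 5 to 6 weeks in GM-CSF at 10 ng/mL plus IL-4 at 1 ng/mL, and taken on day 6. Mature dendritic cells (maDC) came from the same cytokine culture with 10 ng/mL LPS added on day 4, and were picked on CD11c beads on day 8. Regulatory dendritic cells (DCreg) were maDC held for at least 7 days on endothelial-like stromal cells of the spleen and picked again on CD11c beads. The cytokine culture is therefore common to imDC, maDC and DCreg, and maDC and DCreg both carry the LPS exposure. maDC had LPS from day 4, before imDC were taken, so only DCreg were made from another of the sampled cell types, maDC. maDC differ from imDC in LPS, in days of culture and in bead selection, which cannot be told apart. The same is true of DCreg and maDC, which differ in stromal cells, in days of culture and in a repeated bead selection. Every comparison with HSC sets sorted marrow cells against cultured cells, so cell type and culture cannot be told apart there.

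miR-34 miRNAs are known as direct transcriptional targets of p53, the transcription factor activated by DNA damage and other stress. miR-34a has a gene of its own, and miR-34b and miR-34c are made from 1 shared transcript. They repress cell-cycle and survival mRNAs such as Cdk6 and Bcl2, and Notch pathway mRNAs. In human monocyte-derived dendritic cells miR-34a is known to act with miR-21 on JAG1 and WNT1. The miR-449 miRNAs have the same seed, lie within the Cdc20b gene and are best known, with miR-34b and miR-34c, from multiciliated cells.

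The mature sequences show what the family shares and where its members part. Capitals mark the seed, bases 2 to 8, and the letters are given 5′ to 3′ as in the deposited table, with T for U.
miR-34a-5p: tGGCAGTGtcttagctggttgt
miR-34c-5p: aGGCAGTGtagttagctgattgc
miR-34b-5p: aGGCAGTGtaattagctgattgt
miR-449a-5p: tGGCAGTGtattgttagctggt
miR-449c-5p: aGGCAGTGcattgctagctgg
miR-449b: aGGCAGTGttgttagctggc
miR-34a-5p and miR-34c-5p have the same base at 11 of the 22 positions that both have, counted from the 5′ end. miR-34b-5p differs from miR-34c-5p at 2 positions, G11A and C23T, with the miR-34c-5p base given first. miR-449a-5p is nearer to miR-34a-5p, with the same base at 15 of 22 positions.

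The hairpins come from 3 places in the genome (RefSeq and GENCODE annotation, GRCm38). Mir34a lies at chr4:150068454-150068555 on the + strand and overlaps an exon of Gm37795, a gene model on the same strand still to be verified by experiment. Mir34c lies at chr9:51103034-51103110 and Mir34b at chr9:51103562-51103645, both on the − strand with 451 bases between them, inside an intron of Btg4, which is on the + strand. Mir449c (chr13:113035983-113036091) and Mir449a (chr13:113037534-113037624) lie on the + strand in introns of Cdc20b. The RefSeq hairpins of the 2 members follow, since the results below turn on which arm was read; capitals mark the mature 5p and 3p arms.
Mir34a: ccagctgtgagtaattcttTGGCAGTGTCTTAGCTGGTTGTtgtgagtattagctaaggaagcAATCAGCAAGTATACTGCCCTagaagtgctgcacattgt
Mir34c: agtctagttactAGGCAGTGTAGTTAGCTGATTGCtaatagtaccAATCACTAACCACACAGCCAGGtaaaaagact

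Levels are given in 2 ways. The deposited value is a normalised whole number, scaled here to a total of 1000000 over all miRNAs of the library (parts per 1000000, ppm). The recounted value is the number of reads matched to the miRNA, per 1000000 reads matched to any miRNA, with an exact Clopper-Pearson 95% interval. All intervals cover counting error only, since copies made by PCR cannot be told from separate molecules here. The deposited values summed to between 2725948 and 5251069 per library, and between 3932627 and 5523681 reads were recounted, 80.2% to 84.0% of each list. The cell types were checked against miRNAs known from them. The 7 dendritic and myeloid miRNAs summed to 245521 ppm in imDC, 155804 ppm in maDC and 110192 ppm in DCreg, against 49894 ppm in HSC. miR-21-5p and miR-146b-5p carried that sum, and 3 of the 7 went the other way: miR-223-3p, miR-142-3p and miR-142-5p, which blood cells share widely, were all highest in HSC. The 6 stem cell miRNAs summed to 3849 ppm in DCreg, 1077 ppm in maDC and 629 ppm in imDC, against 3100 ppm in HSC, so their sum does not set HSC apart from DCreg, although miR-126-3p was at 49.2 ppm in HSC and at most 1.90 ppm in the others. Of these 6, miR-130a-3p, at 1086 ppm in DCreg, had 0 recounted reads in every library and rests on the deposited values alone. Among the dendritic and myeloid miRNAs, miR-511-3p had 1492 ppm in DCreg but only 3 recounted reads there. The HSC library also held 13763 ppm over 3 erythroid miRNAs, led by miR-451 and miR-144-3p, and 914 ppm of the lymphoid miR-150-5p, against at most 19.0 ppm and 17.1 ppm in the dendritic cell libraries. The 4 stromal miRNAs summed to 1076 ppm in HSC, 61.1 ppm in imDC, 177 ppm in maDC and 254 ppm in DCreg. The part of these other cells in the HSC values below, and of stromal cells in the DCreg values, was not tested.

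miR-34a-5p was a low miRNA in HSC, highest in imDC, and intermediate in maDC and DCreg. It had 14.7 ppm in HSC, 208 ppm in imDC, 52.1 ppm in maDC and 52.5 ppm in DCreg by the deposited values. The reads behind it numbered 31 in HSC and 767 in imDC, 163 in maDC and 102 in DCreg. Recounted, these were 5.96 ppm in HSC (95% interval 4.05 to 8.47), 146 ppm in imDC (135 to 156), 29.5 ppm in maDC (25.2 to 34.4) and 25.9 ppm in DCreg (21.1 to 31.5). The order was therefore imDC, then maDC and DCreg, then HSC, and only the intervals of maDC and DCreg overlapped. Among all 1078 miRNAs it ranked 290 in HSC and 113 in imDC, 153 in maDC and 144 in DCreg.

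miR-34c-5p was low in HSC and stayed high in all 3 dendritic cell libraries. Its deposited level was 4.26 ppm in HSC, 127 ppm in imDC, 237 ppm in maDC and 202 ppm in DCreg. These rest on 13 reads in HSC and 520 in imDC, 779 in maDC and 454 in DCreg. The recounted level was 2.50 ppm in HSC (1.33 to 4.28), 98.7 ppm in imDC (90.4 to 108), 141 ppm in maDC (131 to 151) and 115 ppm in DCreg (105 to 127). maDC was highest on both scales, the intervals of DCreg and imDC overlapped, and HSC lay far below the others. Its rank among all miRNAs was 396 in HSC and 140 in imDC, 93 in maDC and 90 in DCreg. In bulk samples such as these, fewer cells of a type and less RNA per cell cannot be told apart.

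**Figure D1:**
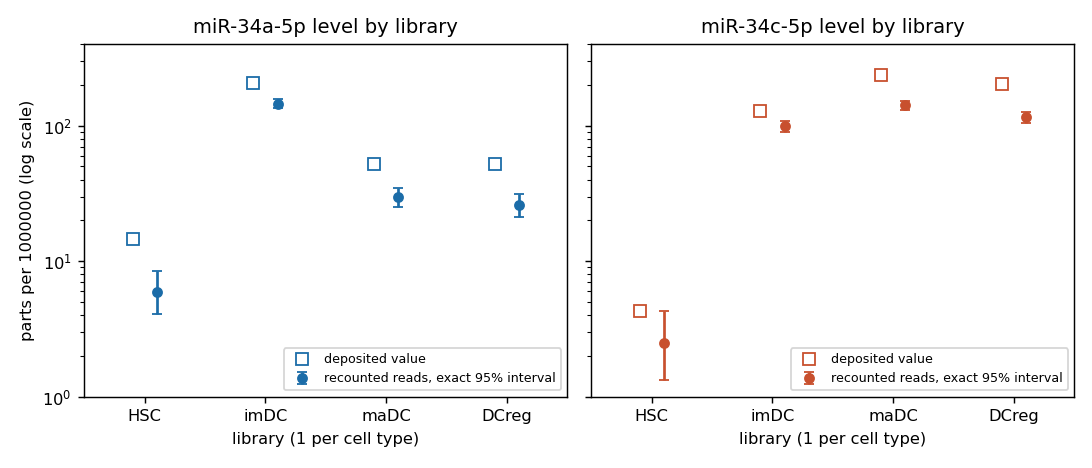
Level of miR-34a-5p (left) and miR-34c-5p (right) in the 4 libraries, in parts per 1000000 on a log axis; open squares are deposited values, filled circles recounted reads with exact 95% intervals. miR-34a-5p peaks in imDC at 208 ppm deposited, while miR-34c-5p is at 127 ppm or more in every dendritic cell library.

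The first comparison asks how the immature dendritic cell differs from the stem cell. A miRNA was called different at 2-fold or more when it reached 100 ppm in 1 of the 2 libraries; there are no replicates, so the call has no test behind it, and miRNAs called tested below are those that reached 100 ppm. Both members were higher in imDC than in HSC. miR-34a-5p was 14.2-fold higher by the deposited values and 24.4-fold by recounted reads (17.1 to 36.2). miR-34c-5p was 29.9-fold higher by the deposited values and 39.5-fold by recounted reads (22.9 to 74.6). Of the 187 miRNAs tested, 26.2% were called higher and 28.3% lower, with a median log2 ratio of -0.12. Among these miR-34c-5p had the 7th and miR-34a-5p the 11th highest ratio. With 4.26 ppm and 14.7 ppm in HSC, miR-34c-5p and miR-34a-5p reached 100 ppm through imDC alone. Being tested thus already required a ratio past 2-fold, so the filter fixed both calls and favoured high ranks. TMM scaling (the trimmed mean of M-values), which raised the median log2 ratio by 0.21, gave 62 miRNAs higher and 40 lower in imDC, where the column totals gave 49 and 53. The deposited value of miR-34a-5p in HSC, 62, was 2 times its exact reads, while in the dendritic cell libraries it was 1.40 to 1.43 times them.

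maDC and DCreg also had more of both members than HSC, and far more of miR-34c-5p. miR-34c-5p was 55.6-fold higher in maDC (recounted 56.4-fold, 32.8 to 106), the 3rd highest ratio of the 180 miRNAs tested, of which 21.7% were called higher. In DCreg it was 47.5-fold higher (recounted 46.2-fold, 26.7 to 87.4), the 4th highest of 175, of which 19.4% were called higher. As miR-34c-5p was at 4.26 ppm in HSC, being tested again required a ratio past 2-fold. The filter therefore fixed these calls too and favoured high ranks. miR-34a-5p was under 100 ppm in all 3 of these libraries and so was not among the miRNAs tested. Its deposited ratio was 3.55 for maDC over HSC and 3.58 for DCreg over HSC. The recounted ratios were 4.95 (3.35 to 7.52) and 4.35 (2.88 to 6.73), both with intervals above 1. For maDC over HSC, TMM scaling raised the median by 0.73 and gave 49 higher and 70 lower, where the column totals gave 39 and 88. These comparisons share the HSC library, so its 31 and 13 reads enter each of them.

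Between immature and mature cells the 2 members moved apart. miR-34a-5p was 3.99-fold lower in maDC than in imDC by the deposited values and 4.93-fold lower by recounted reads (4.16 to 5.88). It was 1 of the 45% of 160 tested miRNAs called lower, with the 30th lowest ratio. It was under 100 ppm in maDC, so being tested already required a lower value there than in imDC. Lower values were common in that comparison, where the median log2 ratio was -0.88 and that of miR-34a-5p -1.996. miR-34c-5p was 1.86-fold higher in maDC by the deposited values, under the 2-fold line, and 1.43-fold higher by recounted reads (1.28 to 1.60). Its ratio was the 18th highest, where 9.38% of tested miRNAs were called higher. With TMM scaling, which raised the median log2 ratio by 0.55, the log2 ratio of miR-34c-5p was 1.44 in place of 0.89, past the line, and that of miR-34a-5p was -1.45. The same scaling gave 27 miRNAs higher and 46 lower in maDC, where the column totals gave 15 and 72.

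DCreg and maDC were within 1.5 times of each other in both members. miR-34c-5p had a DCreg over maDC ratio of 0.854 by the deposited values and 0.819 by recounted reads (0.728 to 0.920), so it was not called; 20.3% of 138 tested miRNAs were called higher and 28.3% lower. Its log2 ratio was -0.23 against a median of -0.34, and 0.12 when the 5 most abundant miRNAs of each library were left out of the totals, which raised that median by 0.35 and gave 33 miRNAs higher and 20 lower, where the column totals gave 28 and 39. miR-34a-5p, under 100 ppm in both libraries, had a ratio of 1.01 (recounted 0.879, 0.679 to 1.13). That interval includes 1.

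Compared with imDC, DCreg again had less miR-34a-5p. It was 3.96-fold lower by the deposited values and 5.61-fold lower by recounted reads (4.56 to 6.97). Lower values were the majority here, with 56% of 168 tested miRNAs called lower and a median log2 ratio of -1.25, so miR-34a-5p had only the 56th lowest ratio. Here too it was tested through imDC alone. miR-34c-5p was 1.59-fold higher in DCreg (recounted 1.17-fold, 1.03 to 1.33) and was not called, where 16.1% were called higher. Its log2 ratio of 0.67 was 1.32 with TMM scaling and 1.11 without the 5 most abundant miRNAs, both past the 2-fold line; these settings raised the median by 0.65 and 0.45. TMM gave 33 higher and 65 lower in DCreg, where the column totals gave 27 and 94. The imDC library also serves the comparison of maDC with imDC, and the DCreg library that of DCreg with maDC.

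**Figure D2:**
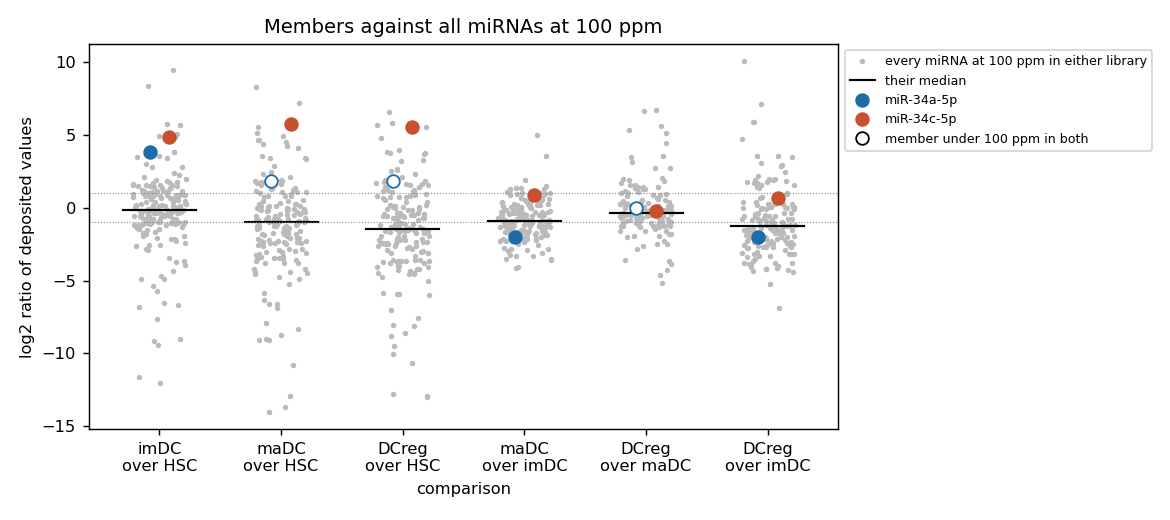
Log2 ratio of deposited values in the 6 comparisons; grey points are all miRNAs at 100 ppm or more in either library, black lines their medians, dotted lines the 2-fold limits, and large points the members (open where under 100 ppm in both libraries). miR-34c-5p, under 100 ppm in HSC, lies near the top of the 3 comparisons with HSC, and miR-34a-5p lies below the median for maDC over imDC.

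The balance between the 2 members needs no scaling between libraries. miR-34a-5p made up 70.5% of their joint reads in HSC (54.8 to 83.2) and 59.6% in imDC (56.9 to 62.3), 17.3% in maDC (14.9 to 19.9) and 18.3% in DCreg (15.2 to 21.8). The deposited values gave 77.5% in HSC and 62.0% in imDC, 18.0% in maDC and 20.6% in DCreg. miR-34a-5p was thus the member with more reads in HSC and imDC, and miR-34c-5p in maDC and DCreg. Whether reads of different sequences stand for equal numbers of molecules was not tested. This limit also holds for the seed family and arm shares below. The intervals of HSC and imDC overlapped, those of maDC and DCreg overlapped, and neither pair overlapped the other. In reads, maDC had 4.78 and DCreg 4.45 of miR-34c-5p for each of miR-34a-5p, against 0.678 in imDC.

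The other miRNAs with this seed differed by genomic cluster. miR-34b-5p, the neighbour of miR-34c, had 0 reads in HSC and 28 in imDC, 48 in maDC and 50 in DCreg. Its deposited level was 0, 7.81, 15.4 and 24.6 ppm in the same order. Taking 3 reads as the floor in HSC, its recounted ratio to HSC was 9.21 in imDC, 15.1 in maDC and 22.03 in DCreg. The exact intervals of these ratios, which allow for counting error in both libraries, began at 7.01, 11.8 and 17.3 in the same order. In DCreg the recounted level of miR-34b-5p was 2.39-fold that in imDC (1.48 to 3.95). So miR-34b-5p, like miR-34c-5p, was not lower in maDC or DCreg than in imDC.

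The miR-449 pair was mainly an imDC signal. miR-449a-5p had 14 reads in HSC and 228 in imDC, 33 in maDC and 2 in DCreg, or 4.26, 54.7, 10.3 and 1.10 ppm deposited. miR-449c-5p had 10 reads in HSC and 213 in imDC, 11 in maDC and 0 in DCreg. In maDC, miR-449a-5p was 7.24-fold lower than in imDC by recounted reads (5.01 to 10.8) and miR-449c-5p 20.3-fold lower (11.1 to 41.3). In DCreg, miR-449c-5p was 52.99-fold lower than in imDC when 3 reads were taken as the floor, and the exact interval began at 42.7-fold. All stayed under 100 ppm, so none was among the tested miRNAs. miR-449b had 0 recounted reads in every library, which allows up to 3 reads, and a deposited value of 4 in DCreg.

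Summed over the family, the seed GGCAGTG was carried by 68 reads in HSC and 1756 in imDC, 1034 in maDC and 608 in DCreg. Per 1000000 recounted reads this was 13.1, 333, 187 and 155. The sum was 25.5-fold higher in imDC than in HSC (19.99 to 32.96), and 1.78-fold lower in maDC than in imDC (1.65 to 1.92). By the deposited values it was 17.2-fold higher and 1.46-fold lower in the same comparisons. Lower values were common in maDC over imDC, where the median log2 ratio of all tested miRNAs was -0.88 by the deposited values. miR-34a-5p held 45.6% of it in HSC and 43.7% in imDC, 15.8% in maDC and 16.8% in DCreg. miR-34c-5p held 19.1% in HSC and 29.6% in imDC, 75.3% in maDC and 74.7% in DCreg. The 1.78-fold difference in the whole family between maDC and imDC was thus smaller than the 4.93-fold difference in miR-34a-5p alone.

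**Figure D3:**
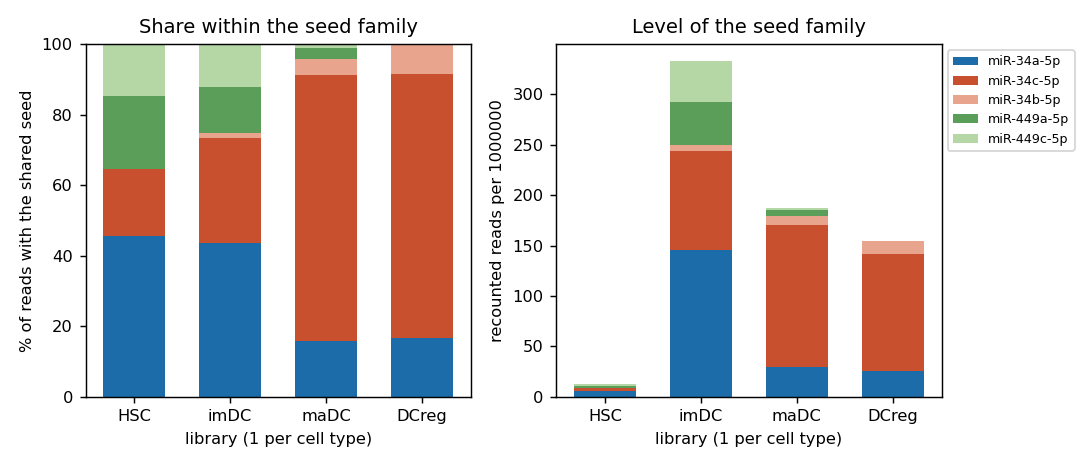
Recounted reads of the miRNAs with the seed GGCAGTG in each library, stacked by miRNA, in percent of the reads with this seed (left) and per 1000000 recounted reads (right). miR-449b is left out because it had 0 reads. miR-34c-5p fills 75.3% of the maDC and 74.7% of the DCreg bar, against 29.6% in imDC.

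The opposite arms add a second readout from the same hairpins. miR-34a-3p, whose own seed is another one, is printed with its bases 2 to 8 in capitals.
miR-34a-3p: aATCAGCAagtatactgccct
It had 8 reads in HSC and 103 in imDC, 126 in maDC and 33 in DCreg, or 3.08, 35.2, 48.5 and 14.3 ppm deposited. Between maDC and imDC it had a ratio of 1.38 by the deposited values and of 1.17 by recounted reads (0.892 to 1.53), in the comparison where the 5p arm was 4.93-fold lower. As a share of both arms, the 3p arm was 20.5% in HSC (9.30 to 36.5) and 11.8% in imDC (9.77 to 14.2), 43.6% in maDC (37.8 to 49.5) and 24.4% in DCreg (17.5 to 32.6). The maDC interval lay above the other 3.

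The shift between maDC and imDC was set against that of other hairpins. The 3p share of mir-34a was 31.8 percentage points higher in maDC than in imDC, and the median absolute shift was 0.879 points over the 107 hairpins with at least 100 reads over both arms in each library. Of these 107, 4 shifted by as much, mir-34a included. From maDC to DCreg the share fell by 19.2 points, where the median absolute shift was 0.308 over 90 hairpins and 3 moved as far. Between DCreg and imDC the share was 12.6 points higher in DCreg, where the median was 0.937 over 92 hairpins and 11 moved as far; these counts include mir-34a. In mir-34c the 3p arm was nearly absent. miR-34c-3p had 0 reads in HSC and 5 in imDC, 2 in maDC and 2 in DCreg, at most 0.952% of both arms, although with 13 reads the HSC interval reaches 24.7%.

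**Figure D4:**
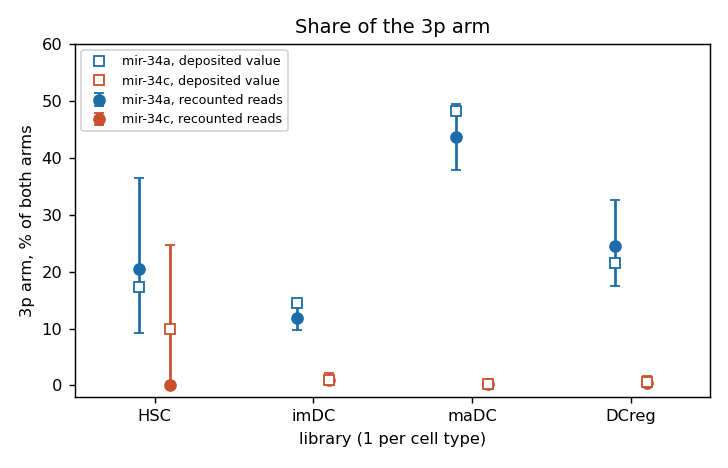
Share of the 3p arm in the sum of both arms, in percent, for mir-34a and mir-34c in the 4 libraries; filled circles are recounted reads with exact 95% intervals and open squares deposited values. By recounted reads the mir-34a share is 43.6% in maDC, against 11.8% in imDC, while mir-34c stays under 1% in the 3 dendritic cell libraries and its HSC interval reaches 24.7%.

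Some reads of the Mir34a hairpin lay outside the window used for the arms. An 18 nt read that begins at base 5 of miR-34a-3p, agcaagtatactgcccta, had 21 copies in imDC, 24 in maDC and 1 in DCreg. All reads of that kind numbered 2 in HSC and 27 in imDC, 26 in maDC and 1 in DCreg, and are not in the 3p shares above. The loop, bases 42 to 63 of the hairpin, had 0 reads in HSC and 6 in imDC, 3 in maDC and 3 in DCreg. The full 22 nt loop, tgtgagtattagctaaggaagc, had 2 copies in maDC and 3 in DCreg.

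The 5′ end of a miRNA sets its seed, and it was almost always the annotated one. For miR-34c-5p, 100% of the reads began at the annotated base in every library, or 520 of 520 in imDC, 779 of 779 in maDC and 454 of 454 in DCreg. For miR-34a-5p the share was 100% in HSC and 99.2% in imDC, 98.8% in maDC and 99.0% in DCreg. Over all recounted miRNAs it was between 92.4% and 96.0%. The seed printed above is therefore the one the reads carried.

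The 3′ ends varied more, and differently in the 2 members. miR-34a-5p reads of the annotated 22 nt form made up 64.5% in HSC and 52.2% in imDC, 41.1% in maDC and 46.1% in DCreg. A form 1 base longer that still matches the hairpin, tGGCAGTGtcttagctggttgtt, had 167 copies in imDC and 31 in maDC. All longer forms that match the hairpin made up 21.9% of miR-34a-5p reads in imDC (19.0 to 25.0), 20.9% in maDC (14.9 to 27.9) and 6.86% in DCreg (2.80 to 13.6). Forms shorter than annotated made up 11.1% in imDC (8.95 to 13.5), 23.3% in maDC (17.1 to 30.6) and 29.4% in DCreg (20.8 to 39.3). The DCreg interval lay below the other 2 for longer forms and above that of imDC for shorter ones.

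miR-34c-5p ended as annotated, at 23 nt, in 89.0% of imDC reads (86.0 to 91.6), 74.8% of maDC reads (71.6 to 77.9) and 56.4% of DCreg reads (51.7 to 61.0). Over all recounted miRNAs the share ending as annotated was 50.0% in imDC, 61.7% in maDC and 55.6% in DCreg, which does not follow the same order. That share weighs each miRNA by its reads, so abundant miRNAs carry it. In miR-34b-5p the annotated end went the other way, with overlapping intervals. It made up 71.4% of 28 reads in imDC, 81.25% of 48 in maDC and 88% of 50 in DCreg. Shorter forms of miR-34c-5p made up 6.35% in imDC, 12.3% in maDC and 31.9% in DCreg (27.7 to 36.4). The main shorter form lacks the last base, aGGCAGTGtagttagctgattg, and had 30 copies in imDC, 87 in maDC and 93 in DCreg. Added A made up 2.5% of reads in imDC, 6.55% in maDC and 7.05% in DCreg, chiefly as aGGCAGTGtagttagctgattgca. With 13 reads, the HSC library does not resolve these shares: the annotated end was found in 53.8% (25.1 to 80.8).

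**Figure D5:**
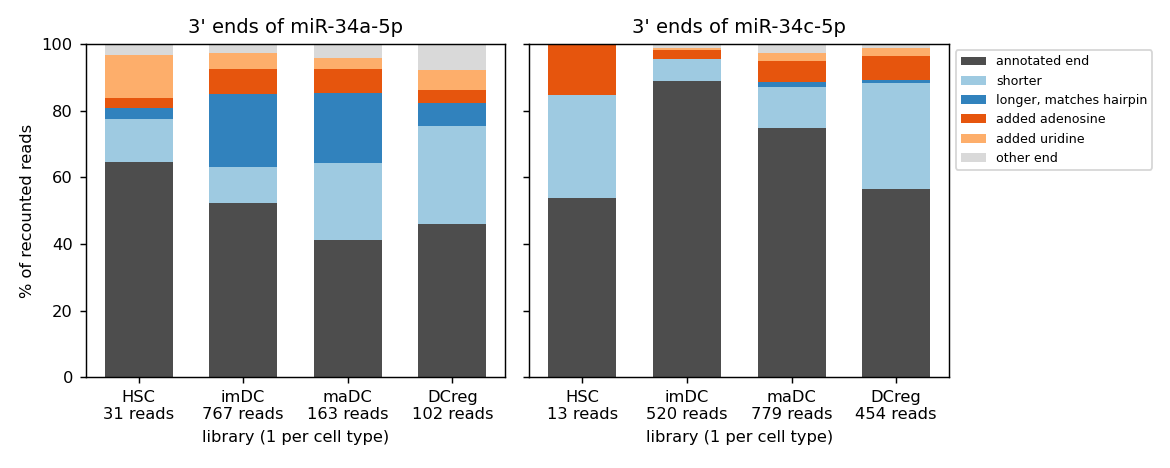
Recounted reads of miR-34a-5p and miR-34c-5p by type of 3′ end, in percent of the reads of that miRNA in each library. For miR-34c-5p the annotated end makes up 89.0% in imDC, 74.8% in maDC and 56.4% in DCreg. The HSC bars rest on 31 and 13 reads.

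The miRNAs with the most similar profile over the 4 libraries were ranked by the Euclidean distance between centred log2 levels, among the 198 miRNAs at 100 ppm or more in any library. For miR-34a-5p the nearest was miR-21-5p, an abundant myeloid miRNA, at a distance of 0.818. It had 19982 ppm in HSC, 140653 ppm in imDC, 71808 ppm in maDC and 61873 ppm in DCreg. miR-674-3p (0.974), miR-674-5p (0.978), miR-22-3p (1.05) and miR-28-5p (1.18) came next. For miR-34c-5p the nearest was miR-184-3p at 1.27, with 10.9 ppm in HSC, 122 ppm in imDC, 248 ppm in maDC and 149 ppm in DCreg. miR-210-3p (1.62), known as a hypoxia-induced miRNA, miR-2182 (1.71), miR-1956 (1.75) and miR-146b-5p (2.21), known as an NF-kB and STAT3 target in humans, followed. miR-2182 had 0 recounted reads in every library, so its likeness rests on the deposited values alone. The 2 members lay at a distance of 3.32 from each other. By that distance miR-34c-5p ranked 100 of 197 for miR-34a-5p, and miR-34a-5p ranked 18 of 197 for miR-34c-5p.

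Other miRNAs linked to p53 were set beside the members as 3 lists. The first holds 14 miRNAs known to be raised by p53 or processed with its help. Of 9 tested between imDC and HSC, 2 were higher and 2 lower, where 26.2% of all tested miRNAs were called higher and 28.3% lower. miR-22-3p was 5.35-fold and miR-23a-3p 2.88-fold higher in imDC, and miR-143-3p was 29.8-fold and miR-15a-5p 2.00-fold lower. The median log2 ratio of the 9 was -0.05, against -0.12 over all tested miRNAs. Between maDC and imDC, 0 of 8 were higher and 4 were lower, namely miR-16-5p, miR-22-3p, miR-23a-3p and miR-200c-3p, with a median of -1.003 against -0.88. There 9.38% of all tested miRNAs were called higher and 45% lower, so 4 of 8 lower is near the background. Between DCreg and maDC, 1 of 7 was higher and 0 lower, where 20.3% of all were called higher and 28.3% lower, and the list median was 0.16 against -0.34. That miRNA was miR-143-3p, one of the stromal markers, at 3.80-fold higher in DCreg. With TMM, 3 of 9 were higher and 1 lower between imDC and HSC, where miR-194-5p joined at the 2-fold line and miR-15a-5p fell short of it, and 2 of 8 were lower between maDC and imDC.

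In the other comparisons the first list stayed near the background of all tested miRNAs. Against HSC, 1 of 8 was higher and 4 were lower in maDC, where 21.7% of all were called higher and 48.9% lower. In DCreg 1 of 8 was higher and 5 were lower, where 19.4% of all were called higher and 56% lower. miR-22-3p was the higher one in both, 2.57-fold in maDC and 3.07-fold in DCreg. DCreg against imDC gave 1 of 9 higher, again miR-143-3p at 12.0-fold, and 5 lower, where 16.1% of all were called higher and 56% lower. The list median was -0.94 against -0.97 over all tested miRNAs in maDC over HSC, -1.42 against -1.43 in DCreg over HSC, and -1.41 against -1.25 in DCreg over imDC. In DCreg against imDC, TMM left 2 of the 5 lower, miR-194-5p and miR-200c-3p.

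The second list holds 4 miRNAs reported to act on p53 mRNA or its activity, of which miR-380-5p was too low to test. miR-125b-5p, known to repress p53, had 58.0 ppm in HSC, 13.5 ppm in imDC, 16.1 ppm in maDC and 363 ppm in DCreg, so that DCreg was 22.6-fold above maDC. miR-25-3p was 2.90-fold lower in imDC than in HSC and 2.58-fold lower in maDC than in imDC. miR-30d-5p was 2.10-fold lower in maDC than in imDC. With 2 or 3 members tested, the list's counts are given only beside the shares of all tested miRNAs. Between imDC and HSC, 0 of 2 were higher and 1 lower, where 26.2% of all were called higher and 28.3% lower, with a median log2 ratio of -0.74 against -0.12. Between maDC and imDC, 0 of 2 were higher and 2 lower, where 9.38% of all were higher and 45% lower, with a median of -1.22 against -0.88. TMM left 0 of these 2 lower, and the totals without the 5 most abundant miRNAs left 1. Between maDC and HSC, 0 of 2 were higher and 2 lower, where 21.7% of all were higher and 48.9% lower, with a median of -1.96 against -0.97. Both other scalings left 1 of these 2 lower, since miR-30d-5p lost its call. Between DCreg and maDC, 1 of 3 was higher and 0 lower (20.3% and 28.3% of all), with a median of 0.55 against -0.34. DCreg had 1 of 3 higher and 1 lower against HSC (19.4% and 56% of all; median -0.45 against -1.43), and the same count against imDC (16.1% and 56% of all; median -0.52 against -1.25).

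The third list holds 6 miRNAs of the miR-17-92 cluster, which promotes proliferation and is known to be repressed by p53. Between imDC and HSC, 0 of 5 tested members passed the 2-fold line in either direction, where 26.2% of all were called higher and 28.3% lower; the list median was -0.46 against -0.12. Between maDC and imDC all 5 tested were lower, where 45% of all were called lower, with a median log2 ratio of -2.28 against -0.88 over all tested miRNAs. miR-92a-3p, for example, was at 380 ppm in maDC against 6531 ppm in imDC, 17.2-fold lower. With TMM, 4 of the 5 stayed past the line and miR-18a-5p did not. The same 5 were lower in DCreg than in imDC, where 56% of all were called lower, with a median of -3.38 against -1.25. In maDC against HSC, 4 of 4 tested were lower, where 48.9% of all were, with a median of -3.69 against -0.97. In DCreg against HSC, 4 of 4 were lower, where 56% of all were, with a median of -4.24 against -1.43. The members of this list share the miR-17-92 cluster and are not independent of each other. Each value adds all hairpins of the mature miRNA, so any hairpin outside this cluster is included. Between DCreg and maDC, miR-17-5p and miR-92a-3p were the 2 tested and both were lower, 2.35-fold and 2.19-fold, where 28.3% of all were called lower, but neither passed the line without the 5 most abundant miRNAs in the totals.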

How the data were processed

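The authors deposited a table of 1195 entries (715 hairpins) with 1 score per library, in whole numbers. The header of the file terms them normalised counts without giving the method, so they were not treated as reads and no count model was used. Per the labels, reads of other RNA classes were removed and the rest compared with miRBase release 19. For each mature miRNA the entries of all its hairpins were added and then scaled to 1000000, and ratios used a pseudocount of 0.5 for log2 values. The authors deposited 1 further list per library, of unique sequences and their copies. Reads were recounted from these by exact match over 16 nt or more, with the 5′ end no more than 2 nt from the annotated base and at most 5 unmatched 3′ bases; the longest match was taken and ties were divided. The recount code was run on simulated reads made from the same mature sequences, without other RNA, mismatches or PCR copies. That run checks the code and cannot show how exact the recount of the real reads is. Levels have Clopper-Pearson and ratios conditional exact 95% intervals (Python 3.11.15, NumPy 2.4.6, SciPy 1.17.1). The floor for a count of 0 is 3 reads.

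With 1 library per cell type there was no test. Alternatives were a pseudocount of 1, TMM scaling, totals without the 5 most abundant miRNAs, recounted reads, a minimum of 10 ppm, 4-fold, an exact 5′ end, 1 mismatch, all listed reads as the total, and reads of 20 nt and more. The miRNAs named are the 2 members, their other arms, the seed family, list members that reach 100 ppm, the 5 nearest profiles and up to 5 sequences per member and library. The members and lists were chosen with earlier results of these data known. Sequences are from the deposited table and RefSeq (GRCm38.p6). RefSeq hairpin sequences were found for Mir34a, Mir34b, Mir34c, Mir449a and Mir449c. None was found for Mir449b, although GENCODE lists that gene at chr13:113037419-113037498 on the + strand. Positions and overlapping genes are from GENCODE on GRCm38; the series' files give no coordinates.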

Additional observations from a re-analysis of the deposited data

How the results depend on the processing

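No paired analysis was possible because each cell type has 1 library, and for the same reason no replicate could be left out. Some log2 ratios of the 2 members moved away from the deposited ratio by more than counting error, and they are listed here. That error was the distance from the recounted log2 ratio to either end of its interval, since deposited values have no counting interval. From recounted reads, miR-34a-5p was 4.59 in imDC over HSC, -2.30 in maDC over imDC and -2.48 in DCreg over imDC, and miR-34c-5p was 0.51 in maDC over imDC and 0.23 in DCreg over imDC. With TMM, miR-34a-5p was 2.55 in maDC over HSC, -1.45 in maDC over imDC and -1.33 in DCreg over imDC, and miR-34c-5p was 1.44 and 1.32 in the last 2 of these. Without the 5 most abundant miRNAs, miR-34c-5p was 0.12 in DCreg over maDC, where it turned sign without a call, and 1.11 in DCreg over imDC, and miR-34a-5p was -1.53 in DCreg over imDC. Every called ratio of a member kept its direction and stayed past 2-fold under TMM and under the other totals. The same held with a pseudocount of 1 and in recounted reads. At 4-fold, miR-34a-5p lost its lower calls in maDC and DCreg against imDC, at log2 ratios of -1.996 and -1.98. The called ratios over HSC stayed past 4-fold. In recounted reads, miR-34c-5p had 98.7 ppm in imDC and 2.50 ppm in HSC. Both are under the 100 ppm needed for a call, while the other called ratios kept a library above it.

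Counts of called miRNAs moved by more than 1.5 times as follows. With a minimum of 10 ppm, higher and lower calls were 98 and 100 for imDC over HSC (49 and 53 at 100 ppm), 76 and 169 for maDC over HSC (39 and 88), 75 and 175 for DCreg over HSC (34 and 98), 35 and 151 for maDC over imDC (15 and 72), 72 and 85 for DCreg over maDC (28 and 39), and 63 and 187 for DCreg over imDC (27 and 94). At 4-fold, they were 20 and 29 for imDC over HSC, 2 and 29 for maDC over imDC, 12 and 11 for DCreg over maDC, and 14 and 54 for DCreg over imDC, and the higher calls were 20 for maDC over HSC and 17 for DCreg over HSC. From recounted reads, 27 were lower in imDC over HSC, 2 higher in maDC over imDC and 17 higher in DCreg over imDC. TMM gave 27 higher and 46 lower in maDC over imDC, and the totals without the 5 most abundant gave 20 lower in DCreg over maDC. The cause of these moves was not tested, except that the lower minimum tests more miRNAs and the higher fold calls fewer by construction. The recount's own alternatives, and all shares, stayed within their intervals. TMM also raised the median log2 ratio by 0.31 in DCreg over HSC, and the totals without the 5 most abundant raised it by 0.14 in maDC over HSC and 0.49 in DCreg over HSC. In HSC, 31 and 13 reads limit every ratio against it.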
